A study of Mus musculus with 16 samples.

Results

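The genes described here make, recycle and break down coenzyme A, the carrier to which cells attach fatty acids and acetate. They were the rows of the deposited table named Vnn1, Vnn3, Pank1, Pank2, Pank3, Ppcs, Ppcdc, Coasy, Nudt7 or Nudt19, which gave 10 rows of 30463 genes. All 10 were above the table's limit on low counts and carried an adjusted p. RNA was sequenced from whole liver of wild-type C57BL/6N mice at 14 weeks of age. Mice were injected with vehicle or with diethylnitrosamine (DEN), an alkylating liver carcinogen, at 2 weeks of age. From 6 weeks they kept a control diet or were moved to a diet labelled as 60% high fat. Each combination of injection (vehicle or DEN) and diet (control or high fat) has 4 samples, which made 4 groups and 16 samples. The sources used here do not state the sex of the mice.

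Coenzyme A is built from pantothenate, a vitamin. Pantothenate kinases (Pank genes) phosphorylate it in the step that limits the rate, Ppcs joins cysteine to the product, Ppcdc removes a carboxyl group to give phosphopantetheine, and Coasy carries out the closing reactions. In peroxisomes the Nudix hydrolases Nudt7 and Nudt19 cut coenzyme A back to phosphopantetheine. Vanins are pantetheinases at the cell surface or outside the cell that split pantetheine into pantothenate, which can be used again, and cysteamine. Vnn1 in hepatocytes is a known target of PPAR alpha, the receptor through which fatty acids switch on their own oxidation.

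All values belong to a single contrast computed by the authors, and the table does not name its sides. A positive log2 fold change is therefore called higher on the positive side, with no statement on diet or DEN. The per-library columns carry codes that match no sample label, so the level of each gene in each group, the depth of each library and the spread between mice are not given. The standard error (SE) of the authors' deposited table stands for the error of each value, and a gene was called where its adjusted p there was below 0.05. In this table Alb, the albumin gene, had the highest mean normalized count of the hepatocyte markers at 1079857, and albumin is the main protein hepatocytes secrete. Of 8 hepatocyte markers 3 were called negative and 0 positive, with a median log2 fold change of -0.26. The 3 called markers had log2 fold changes from -1.53 to -0.64. The other 5 were not called, with log2 fold changes from -0.29 (Alb) to 0.04 (Apoa1). Of 6 Kupffer cell markers 1 was called negative (median -0.62). Over all 16288 genes with an adjusted p, 2.90% were called negative and 3.67% positive. No marker was called among 5 for sinusoidal endothelium (median -0.41), 5 for cholangiocytes (0.43), 5 for stellate cells (-0.14) and 6 for neutrophils and myeloid cells (-0.35). The adipocyte markers Adipoq, Retn and Plin1 had mean normalized counts between 0.387 and 0.558, too low for an adjusted p. In whole tissue, fewer cells of a type and less RNA per cell cannot be told apart, and the part of cell composition in the values that follow was not tested.

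The 3 pantothenate kinase genes carry a shared element. Pank1, Pank2 and Pank3 each hold a microRNA gene in an intron on their own strand, which are Mir107, Mir103-2 and Mir103-1. The mature 3p arms are shown because they are near-identical across the 3 host genes, with the seed (bases 2 to 8) in capitals, as given by RefSeq on GRCm38.p6.
mmu-miR-103-3p: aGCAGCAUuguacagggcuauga
mmu-miR-107-3p: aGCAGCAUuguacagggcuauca
The seed GCAGCAU is the same in both, and the arms differ at 1 of 23 bases (G22C, miR-103-3p first, counted from the 5′ end). The copy in Pank1 lies at chr19:34820700-34820722 on the minus strand, the copy in Pank2 at chr2:131288103-131288125 and that in Pank3 at chr11:35782447-35782469, both on the plus strand. A stranded mRNA kit does not measure mature microRNAs, so no level is reported for them.

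The window before the start site is shown for the synthesis gene Ppcs, which was called, and for Vnn3, the vanin with a window in the RefSeq table. Entries were found for 8 of the 10 genes, in 12 windows of 250 bases, some of which are overlapping starts of the same gene, and not for Vnn1 or Coasy. Capitals mark AGGTCA, the core element of nuclear receptors such as PPAR alpha, on either strand (as TGACCT on the other).
Ppcs: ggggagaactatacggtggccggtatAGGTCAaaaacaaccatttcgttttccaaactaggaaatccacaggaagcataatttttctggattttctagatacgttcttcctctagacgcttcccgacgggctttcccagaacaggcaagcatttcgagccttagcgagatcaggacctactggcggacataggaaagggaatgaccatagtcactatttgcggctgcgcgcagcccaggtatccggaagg
Vnn3: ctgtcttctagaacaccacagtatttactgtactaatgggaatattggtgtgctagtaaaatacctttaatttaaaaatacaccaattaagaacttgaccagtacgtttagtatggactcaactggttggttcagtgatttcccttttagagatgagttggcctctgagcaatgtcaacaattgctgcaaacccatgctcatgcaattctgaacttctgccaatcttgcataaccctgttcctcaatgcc
The Ppcs window is chr4:119422421-119422670 on the minus strand and the Vnn3 window chr10:23851212-23851461 on the plus strand, both on GRCm38.p6. The core element occurred in 1 of the 12 windows, that of Ppcs, where it begins 224 bases before the start, and in 14.0% of all 32851 windows of that length. The direct repeat AGGTCANAGGTCA, the full element of PPAR alpha, was in 0 of the 12 windows and in 0.0335% of all windows. Its looser form AGGNCANAGGNCA, which includes the strict form, was in 0 of the 12 and in 0.338% of all. The GC box GGGCGG was in 6 of the 12 windows against 32.7% of all. These 6 belong to Nudt7, Pank2, Pank3 and Ppcdc alone, and Nudt7 and Pank2 count more than once. The Nudt7 windows overlap and hold the same 4 boxes. The Vnn3 window, with 39.2% G and C and 1 CG dinucleotide, stood at the 10.3 percentile of all windows in G and C content. These letters are described for the windows alone.

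Of the 10 genes, 2 were called positive, Vnn1 and Ppcs, and 0 were called negative in the authors' deposited table. Over all 16288 tested genes 3.67% were called positive and 2.90% negative. Each of the 10 had a mean normalized count above 100, and among tested genes with a mean of 100 or more, readjusted alone, 5.02% were called positive. By sign alone 7 of the 10 were positive, against 49.2% of all tested genes. The median log2 fold change of the 10 genes was 0.23, beside -0.0044 for all tested genes. The genes were chosen with earlier results of these data known, so these counts are a description, and no test of the set was made.

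**Figure D1:**
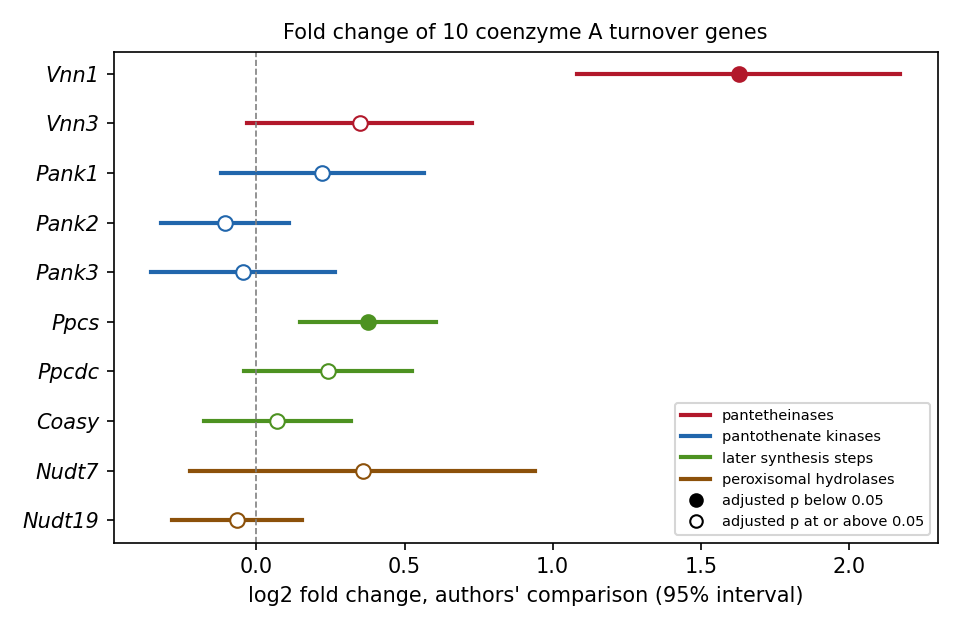
Log2 fold change of the 10 genes in the authors' comparison (x axis) with 95% normal intervals from the authors' SE as lines, coloured by step of the pathway; filled points have an adjusted p below 0.05. The interval of Vnn1, from 1.08 to 2.17, lies apart from that of every other gene shown.

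Vnn1, a pantetheinase gene, had the largest difference of the 10. It was at 1.63 ± 0.28 (log2 fold change, SE, adjusted p = 1.2e-06, authors' deposited table), which is 3.09-fold with a 95% interval from 2.12 to 4.51. By p it ranked 67 among all tested genes, and 99.4% of tested genes had a lower log2 fold change. Vnn1 (ENSMUSG00000037440) lies on chromosome 10 from 23894688 to 23905343 in GRCm38, on the plus strand.

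Vnn3, the neighbouring pantetheinase gene, was not called. Its log2 fold change was 0.35 ± 0.19 (SE, adjusted p = 0.317, authors' deposited table), with an interval from -0.03 to 0.73, so any difference on the positive side up to 1.66-fold lies within it. Vnn3 (ENSMUSG00000020010) lies on the same strand from 23851462 to 23869843, and 24844 bases separate the genes. Their intervals do not overlap, but the difference between them was not tested, since both values come from the same libraries and how their errors vary together is not given in the table. No run of 50 bases of an annotated Vnn1 or Vnn3 transcript occurs in a transcript of another gene, and the longest run shared by their longest transcripts is 12 bases. The authors' mean normalized count was 1479 for Vnn1 and 1001 for Vnn3, which per kb of exon is 612 and 553, a ratio of 1.11 whose error is not given. The other genes within 100 kb that had an adjusted p were not called. Slc18b1, a transporter gene on the other side of Vnn3, was at 0.31 (log2 fold change, adjusted p = 0.225, authors' deposited table), and Rps12, a ribosomal protein gene further out, at -0.13 (adjusted p = 0.638).

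None of the 3 pantothenate kinase genes was called, and they did not share a sign. Pank1, the form abundant in liver, was at 0.22 ± 0.17 (log2 fold change, SE, adjusted p = 0.535, authors' deposited table), with an interval from -0.12 to 0.56. Pank2, the form whose human counterpart is mitochondrial and mutated in a neurodegenerative disease, was at -0.11 ± 0.11 (log2 fold change, SE, adjusted p = 0.666, authors' deposited table). Pank3, a cytosolic form, was at -0.04 ± 0.16 (log2 fold change, SE, adjusted p = 0.922, authors' deposited table). The intervals reach up to 1.48-fold for Pank1, 1.08-fold for Pank2 and 1.20-fold for Pank3 on the positive side, and larger rises of these transcripts lie outside them. On the negative side they reach 1.09-fold, 1.25-fold and 1.28-fold. Pank2 overlaps the opposite-strand gene Rnf24 over 1125 exon bases, and 20.9% of its runs of 50 bases occur in transcripts of Rnf24 or Gm14233. Rnf24 had a mean normalized count of 102 beside 396 for Pank2, and a log2 fold change of 0.01 (adjusted p = 0.987, authors' deposited table). The sources used here do not say whether counting was by strand. If it was not, reads from the overlap of Pank2 and Rnf24 cannot be told apart.

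The later steps of synthesis were all positive in sign, and 1 of 3 was called. Ppcs, which joins cysteine to phosphopantothenate, was at 0.38 ± 0.12 (log2 fold change, SE, adjusted p = 0.0278, authors' deposited table), or 1.30-fold with an interval from 1.11 to 1.52. Its call was lost under 5 of the 9 alternatives tried, among which the adjusted p was 0.0515 over every gene with a p and 0.116 with a trend on GC content, length and mean count removed. Ppcdc, the decarboxylase that follows, was at 0.24 ± 0.14 (log2 fold change, SE, adjusted p = 0.371, authors' deposited table), and its interval from -0.04 to 0.52 covers the value of Ppcs. Coasy, the enzyme of the closing reactions, was at 0.07 ± 0.13 (log2 fold change, SE, adjusted p = 0.829, authors' deposited table), with an interval from -0.18 to 0.32. Ppcs (ENSMUSG00000028636) lies on chromosome 4 from 119418530 to 119422420 on the minus strand of GRCm38, and Zmynd12 starts 394 bases away on the opposite strand. Zmynd12 had a mean normalized count of 4.26 beside 301 for Ppcs, and was at 0.17 (log2 fold change, adjusted p = 0.897, authors' deposited table).

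The peroxisomal hydrolases were not called. Nudt7, the main coenzyme A hydrolase of liver peroxisomes, was at 0.36 ± 0.30 (log2 fold change, SE, adjusted p = 0.562, authors' deposited table). Its interval runs from -0.22 to 0.94, so differences from 1.17-fold lower to 1.92-fold higher on the positive side were not distinguished. Nudt19, a coenzyme A hydrolase best known from kidney, was at -0.06 ± 0.11 (log2 fold change, SE, adjusted p = 0.825, authors' deposited table), with an interval from -0.28 to 0.15. The opposite-strand gene B230322F03Rik overlaps 938 exon bases of Nudt19, with a mean normalized count of 2.25 beside 576 for Nudt19. Nudt7 (ENSMUSG00000031767) lies on chromosome 8 from 114133557 to 114154739 and Nudt19 (ENSMUSG00000034875) on chromosome 7 from 35547185 to 35556304 in GRCm38.

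Levels were compared between genes as the authors' mean normalized count per kb of annotated exon. On this scale Nudt7 was highest at 864, followed by Coasy at 754, Vnn1 at 612, Pank1 at 557 and Vnn3 at 553. Nudt19 at 215, Pank3 at 190 and Ppcs at 188 formed a lower tier, and Pank2 at 80.7 and Ppcdc at 32.2 were lowest. Among the kinases the level of Pank1 stood above those of Pank3 and Pank2, and between the hydrolases that of Nudt7 above that of Nudt19. The spread over libraries behind these means is not given, so whether neighbours in this order differ was not tested. Annotated exons that liver does not use lower the value of a gene, and runs of 50 bases that also occur in other genes made up 33.3% of those of Nudt19, 20.9% of those of Pank2 and 11.0% of those of Ppcdc.

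**Figure D2:**
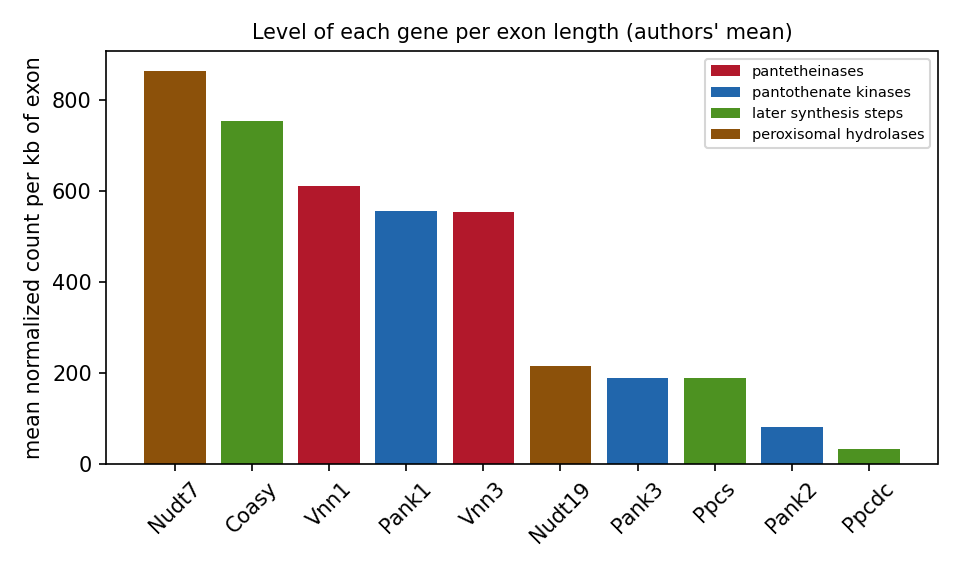
Authors' mean normalized count per kb of annotated exon (y axis, from 0) for each of the 10 genes, coloured by step of the pathway, with no error bars because values per library were not used. Nudt7 at 864 is highest and Ppcdc at 32.2 lowest.

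The precision of the fold changes differed among the genes, also beside other genes of like count. The SE of each was set beside the median SE of the 500 tested genes nearest in mean normalized count. For Vnn1 it was 2.45 times that median, for Nudt7 2.26 times and for Vnn3 1.82 times, so these 3 genes were measured with less precision than genes of their abundance. For Vnn1 97.0% of the 500 genes had a smaller SE, for Nudt7 93.6% and for Vnn3 88.2%. The ratio was 1.40 for Pank3 and 1.33 for Pank1. For Coasy, Ppcdc, Nudt19, Ppcs and Pank2 it lay between 0.967 and 1.09. Nudt7 and Ppcs had nearly the same log2 fold change, 0.36 and 0.38, and only Ppcs was called, with an SE of 0.12 beside 0.30 for Nudt7. Values per library were not used, so which livers carry the spread of Vnn1, Vnn3 and Nudt7 is not reported here.

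**Figure D3:**
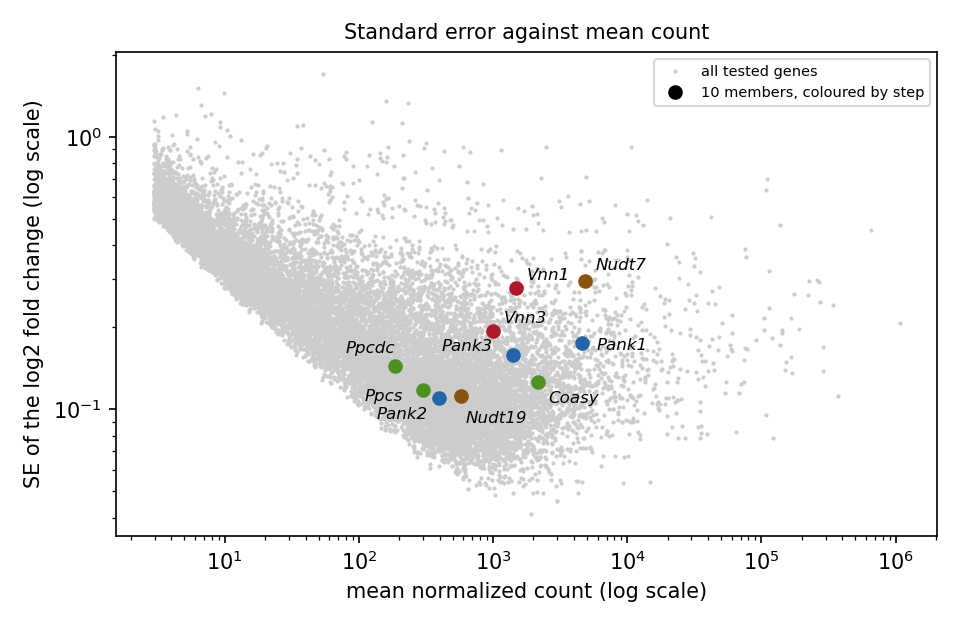
SE of the log2 fold change (y axis, log scale) against the mean normalized count (x axis, log scale) for all tested genes in grey and the 10 genes in the colours of their pathway step. Vnn1, Nudt7 and Vnn3 lie above most genes of like count, with SE of 0.28, 0.30 and 0.19.

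Genes related to coenzyme A metabolism were taken from 7 lists, which hold 99 tested genes apart from the 10. The lists of PPAR alpha targets and of other Nudix hydrolases also hold genes with no part in that metabolism, such as Cd36 and Nudt9, so the counts over the lists together are no measure of it. Of the 99 genes 15 were called positive and 2 negative, with a median log2 fold change of 0.15, against 3.67% and 2.90% of all tested genes. With the mean normalized count at 100 or more, 92 of the 99 were tested and 15 called positive. The share of all genes at that minimum was 5.02%. Among 11 other genes of synthesis, transport and hydrolysis, 0 were called positive. They include Slc5a6, the cell's importer of pantothenate, at 0.43 ± 0.24 (log2 fold change, SE, adjusted p = 0.304, authors' deposited table) and Slc25a42, the mitochondrial carrier of coenzyme A, at 0.12 ± 0.21 (adjusted p = 0.823). The negative call of this list was Dpyd at -0.61 ± 0.09 (log2 fold change, SE, adjusted p = 7.1e-09, authors' deposited table), the entry enzyme of pyrimidine breakdown, whose later steps give beta-alanine. Dpys and Upb1, the enzymes after it, were at 0.09 ± 0.16 and 0.07 ± 0.09 and were not called. Slc5a6, Slc25a42, Dpys and Upb1 were chosen for naming by their role after values were seen.

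Cysteamine, the other product of vanins, can be oxidised to hypotaurine and taurine. The list for this route also holds genes that make taurine from cysteine (Cdo1, Csad), move it (Slc6a6) or act in bile acid conjugation (Baat). Of its 6 tested genes 0 were called positive and 1 negative (median -0.12), against 3.67% and 2.90% of all tested genes. The called gene was Slc6a6, the taurine transporter and not a step of the route, at -0.34 ± 0.11 (log2 fold change, SE, adjusted p = 0.0333, authors' deposited table). Ado, the dioxygenase that acts on cysteamine, was at 0.11 ± 0.08 (log2 fold change, SE, adjusted p = 0.463, authors' deposited table), and was named for its role after its value was seen.

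Acyl-CoA synthetases, which use coenzyme A to activate fatty acids, had 4 of 16 genes called positive and 0 negative (median 0.22). Over all tested genes 3.67% were called positive and 2.90% negative. Acsf3, the mitochondrial malonyl-CoA synthetase gene, was at 0.66 ± 0.09 (log2 fold change, SE, adjusted p = 2.2e-09, authors' deposited table) and Acsf2 at 0.39 ± 0.10 (adjusted p = 0.00305). Slc27a4, a fatty acid transport protein with synthetase activity, was at 0.42 ± 0.13 (adjusted p = 0.0279) and Acsm1, a medium-chain synthetase, at 0.25 ± 0.08 (adjusted p = 0.0389), on the same scale and from the same table. Acyl-CoA thioesterases, which release coenzyme A again, had 0 of 12 called in either direction (median 0.07) in the authors' deposited table. Whether the synthetase and thioesterase lists differ was not tested.

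Peroxisomal beta-oxidation, the pathway that shares its compartment with Nudt7 and Nudt19, had 4 of 18 genes called positive and 0 negative (median 0.24). PPAR alpha targets, a list that overlaps it, had 8 of 24 called positive and 0 negative (median 0.31). Beside these counts and that of the Nudix hydrolases below, 3.67% of all tested genes were called positive and 2.90% negative. The thiolase genes Acaa1b and Acaa1a were at 1.76 ± 0.33 and 0.53 ± 0.10 (log2 fold change, SE, authors' deposited table), both called. Pex11a, a peroxisome division protein, was at 0.94 ± 0.17, the fatty acid transporter gene Cd36 at 1.43 ± 0.26 and the aldehyde dehydrogenase gene Aldh3a2 at 1.17 ± 0.30 (log2 fold change, SE, authors' deposited table), all called. The value of Vnn1, 1.63, lay between those of Acaa1b and Cd36. By sign 21 of the 24 tested PPAR alpha targets were positive, against 49.2% of all tested genes. The negative ones were not called and include the omega-hydroxylase gene Cyp4a10 at -0.79 ± 0.56 (log2 fold change, SE, adjusted p = 0.479, authors' deposited table). Cpt1a, which admits fatty acids to mitochondria, was also negative at -0.34 ± 0.13 (adjusted p = 0.0834). Cyp4a10 and Cpt1a were named after their values were seen. Ppara itself was at 0.01 ± 0.17 (log2 fold change, SE, adjusted p = 0.987, authors' deposited table). Of 17 tested Nudix hydrolases other than Nudt7 and Nudt19, 2 were called positive and 0 negative (median 0.21). They were Nudt13, a mitochondrial enzyme, at 0.48 ± 0.09 (log2 fold change, SE, adjusted p = 2.6e-05, authors' deposited table) and Nudt9, an ADP-ribose hydrolase, at 0.33 ± 0.09 (adjusted p = 0.0101).

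**Figure D4:**
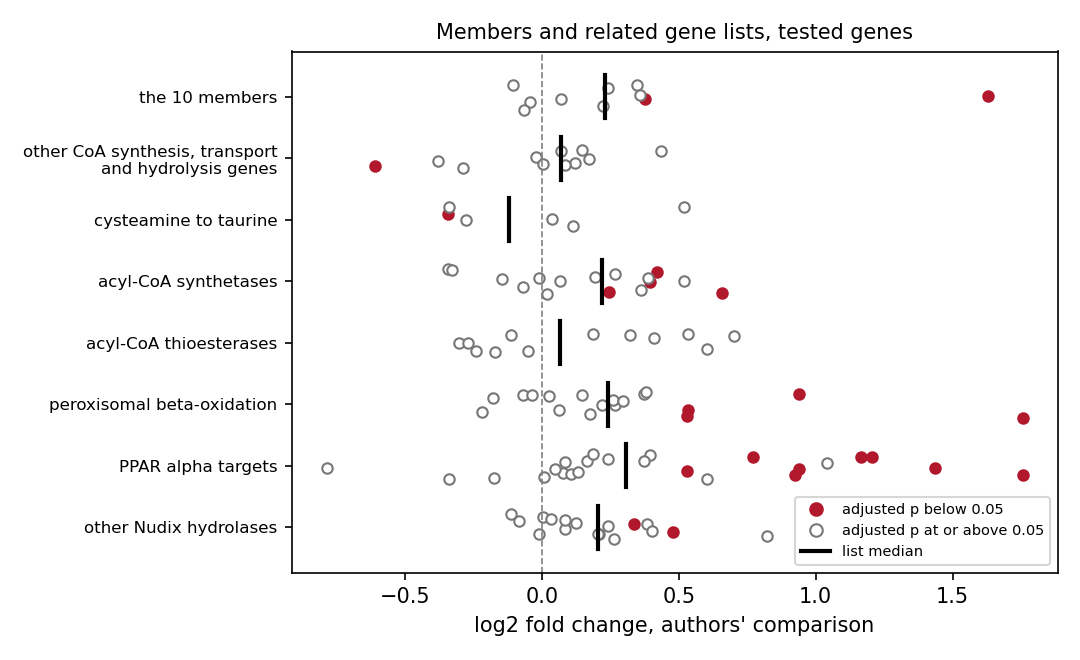
Log2 fold change in the authors' comparison (x axis) of every tested gene of the 10 members and of 7 related lists (rows), with a black line at each list's median and filled points for an adjusted p below 0.05. Vnn1 at 1.63 is the farthest member, and the widest of the related genes is Acaa1b at 1.76, in the peroxisomal and PPAR alpha lists.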

How the data were processed

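RNA of whole liver from 16 mice (4 groups of 4) was sequenced after stranded mRNA library preparation, per the labels' protocols. The submitters' processing notes name HISAT2, HTSeq 0.11.1, Trimmomatic and FastQC, and GRCm38 as the build, without saying what each did. Per the file headers, the authors' deposited table holds a mean normalized count (a signal), a log2 fold change with its SE, a test statistic (a score), a p-value and an adjusted p-value for 1 comparison. The sources used here do not give its tool, model or sides. The table's 16 library columns match no label and were not used, so the planned edgeR fit of diet and DEN effects was not run, and no depth, value per sample or genes of like pattern are given.

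Checked on the values, the statistic is the fold change over its SE, and the adjusted p is Benjamini-Hochberg over 16288 genes with a mean of at least 2.949. Intervals are 95% normal intervals. Positions, exon lengths and transcripts came from GENCODE M21 on GRCm38, and windows and microRNAs from RefSeq. The steps were tested on simulated data with Python 3.11.15 and scipy 1.17.1.

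Named were all 10 members, at most 4 called genes per related list by smallest p, and overlapping or adjacent genes. Members and lists were chosen with earlier results of these data known. Of the list symbols, Gadl1 and Lep were not analysed here, and 1 called gene is not reported here by name. The 9 alternatives covered thresholds, adjustments, count minimums, a scaled and a centred statistic, and a spline trend (4 degrees of freedom each) on GC content, length and mean count, available for 99.9% of tested genes.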

Additional observations from a re-analysis of the deposited data

How the results depend on the processing

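Vnn1 was called positive under all 9 alternatives, with adjusted p from 8.7e-07 to 0.0113. Ppcs lost its call under 5 of them, which left 1 of the 10 members called positive each time: its adjusted p was 0.0278 against a threshold of 0.01, 0.0515 over every gene with a p, 0.286 with the Benjamini-Yekutieli adjustment, 0.536 with the statistic divided by its median absolute deviation, and 0.116 after a trend on GC content, length and mean count was taken out. Benjamini-Yekutieli and the threshold of 0.01 are stricter by construction, the adjustment over every gene includes more genes, and the scaling makes each statistic smaller. For the trend the cause was not tested. Removing it also turned the sign of Pank3 (adjusted p = 0.915), which was not called either way. No other member changed its call or sign. Of the 99 related genes, 15 called positive became 9 at 0.01, 8 with Benjamini-Yekutieli and 6 with the scaled statistic, while the share of all genes called positive fell from 3.67% to 1.76%, 1.42% and 0.546%. They became 10 over every gene with a p, 12 without the trend and 18 at 0.10 (all genes 1.43%, 3.16% and 5.32%). The 1.43% is a share of 30463 genes and the 3.67% a share of 16288, so these 2 shares do not have the same base. The 2 related genes called negative became 3 at 0.10 and 1 under the 5 alternatives that ended the call of Ppcs. The share of all genes called negative was 2.90% as deposited and 4.43% at 0.10. Among those 5 it was 1.26% at 0.01, 1.09% (of 30463 genes) over every gene with a p and 0.964% with Benjamini-Yekutieli. It was 0.325% with the scaled statistic and 2.37% without the trend. No paired analysis was possible because the library columns carry no replicate number. Leaving out replicates was not run for the same reason.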

Other observations

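Of 33 tested genes that lie within 100 kb of a member without overlapping it, apart from the members, 1 was called positive and 1 negative, with a median log2 fold change of 0.08 in the authors' deposited table. These counts are near the shares over all tested genes, 3.67% and 2.90%. The positive gene was Plekhh3, near Coasy, at 0.45 (log2 fold change, adjusted p = 0.0149). The negative gene was Kif20b, a mitotic kinesin gene next to Pank1, at -0.91 (log2 fold change, adjusted p = 0.0108). Both were named after their values were seen.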
